A study of Rattus norvegicus with 4 samples.

Results

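The colony-stimulating factors and their receptors were followed as 6 genes, selected by gene symbol from the 23999 genes listed in the files. They were the ligands Csf1 (ENSRNOG00000018659), Csf2 (ENSRNOG00000026805) and Csf3 (ENSRNOG00000008525) and the receptor genes Csf1r (ENSRNOG00000018414), Csf2rb (ENSRNOG00000000187) and Csf3r (ENSRNOG00000008759). They were chosen by symbol with injected against uninjected results of the same libraries known, among them the high Csf3 of injected fibroblasts. Their values in that comparison are therefore a description, and no test of them is used as support. The cells came from rat skin on day 4 of a wound healing model and were profiled by droplet-based single-cell RNA sequencing. In 2 injected libraries the skin had received purified migrasomes, vesicles shed onto the retraction fibres of moving cells, and in 2 uninjected libraries it had received nothing. Strain, age, sex and dose are unstated in the sources used, and an injection as such cannot be told apart from the migrasomes it carried. Nothing in the labels says that the libraries came from separate animals, so every p-value reflects only how these libraries vary, and that variation may be technical.

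Colony-stimulating factors are secreted proteins that control the number and survival of myeloid cells. Csf1 (M-CSF) maintains monocytes and macrophages through the tyrosine kinase Csf1r, which also binds Il34. Csf2 (GM-CSF) acts on dendritic cells, macrophages and granulocytes through Csf2ra and the common beta chain Csf2rb, which the receptors for Il3 and Il5 share. Csf3 (G-CSF) drives the production and release of neutrophils through Csf3r. In skin the ligands are made by stromal, endothelial and epithelial cells when Il1, Tnf or Il17 act on them, and their messenger RNAs are short-lived.

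The 4 libraries kept 9084 and 8722 uninjected cells and 9844 and 6075 injected cells, with median depths of 2092.5 and 4947.5 against 3408 and 7880 UMIs (unique molecules counted). Pairs of libraries shared 14 to 29 cell barcodes, at most 0.333% of the smaller library. Of 23 clusters, formed without the 6 genes, 20 were named from marker genes as classes called X-like, and 3 stayed unnamed. The 6 classes with at least 50 cells in every library were tested, and levels are given as CPM, the UMIs of a gene scaled to the sum of UMIs of the class, so that a level does not depend on the number of cells. The labelled tissue was matched by keratinocyte-like and fibroblast-like cells in every library. Library uninjected 1 stood apart. In its fibroblast-like cells, ribosomal protein genes had 16.1% of the UMIs against 7.40% to 8.67% in the others, and 4.52% against 0.754% to 0.933% in neutrophil-like cells, and their part in the results was not tested.

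Csf3 was the ligand with the widest difference between the groups. In fibroblast-like cells, marked by collagens and Dcn, it stood at 15.0 and 36.4 CPM without injection and at 274 and 303 CPM with it. The groups did not overlap, and the means were 25.7 ± 15.2 and 289 ± 20.4 CPM (SD, n = 2). The log2 change was 3.52 (SE 0.38), with a 95% interval from 2.62 to 4.43. These counts rested on 97 and 621 UMIs against 5379 and 3745. The level in uninjected 1 was carried in part by 37 cells of a small fibroblast-like cluster led by Lum, Dcn and Eln, which held 52 of its 97 UMIs at 131 CPM. In the main fibroblast-like cluster the 4 levels were 7.39 and 37.3 against 276 and 309 CPM.

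**Figure D1:**
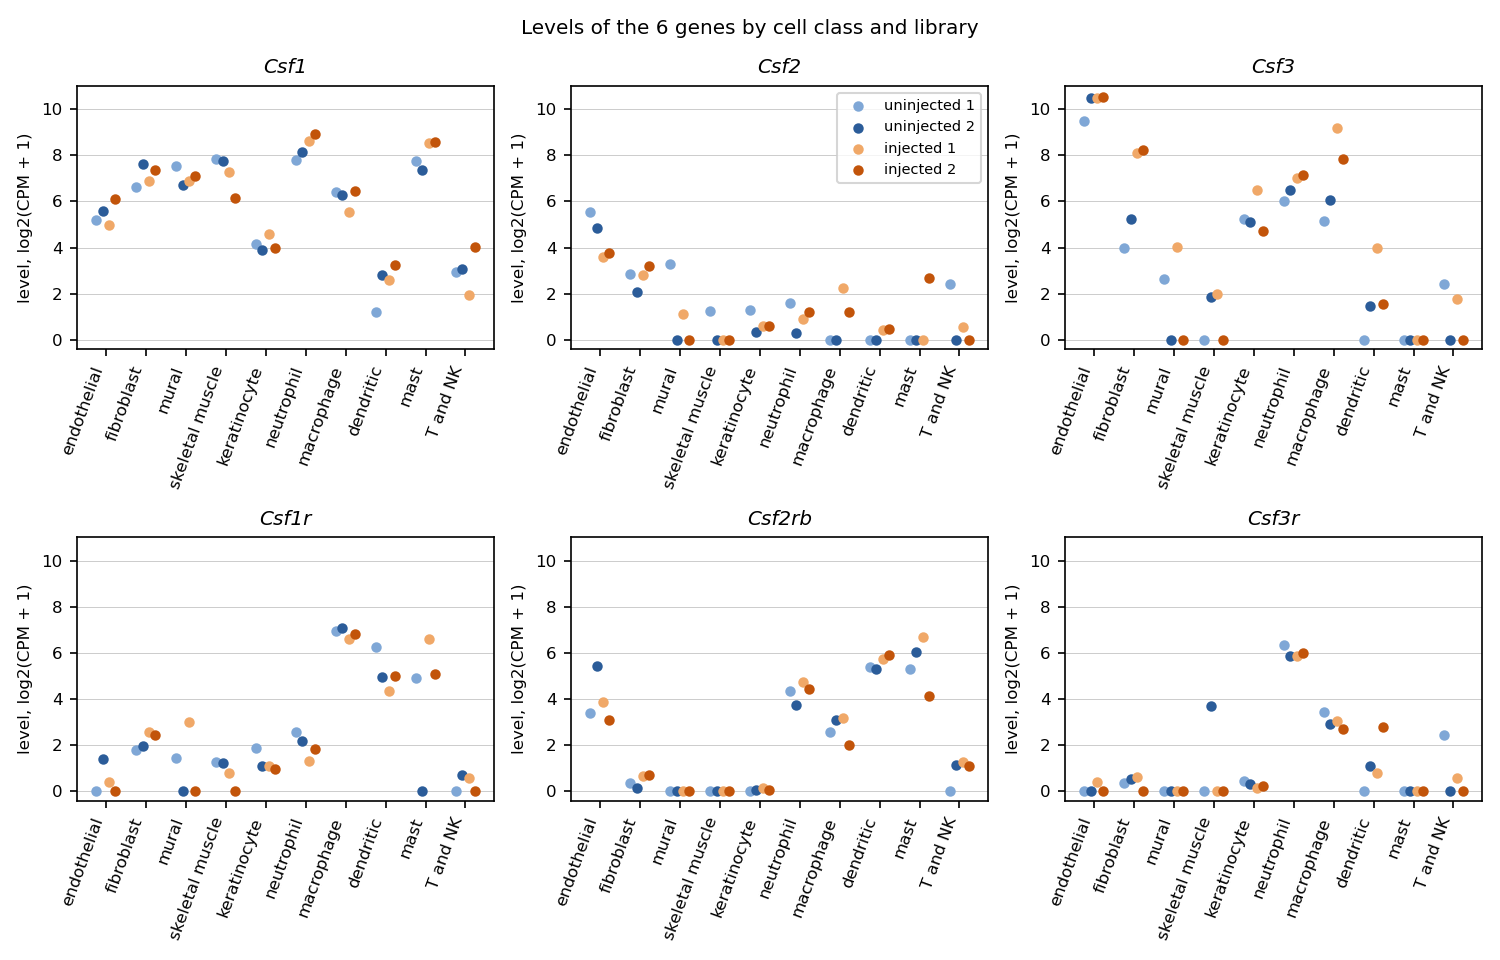
Level of each of the 6 genes, as log2(CPM + 1), in each named cell class (x axis), with 1 point per library, blue for uninjected and orange for injected. Csf3 reached 724 to 1460 CPM in endothelial-like cells of all libraries, and in fibroblast-like cells both injected points lie above both uninjected points.

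Macrophage-like cells gave a similar picture for Csf3 with more scatter. Without injection the levels were 34.6 and 65.0 CPM, and with it 586 and 228 CPM. The injected libraries were both above the uninjected ones but far apart from each other, and uninjected 1 held only 7 Csf3 UMIs in 62 cells. The log2 change was 3.12 (SE 0.55), with an interval from 1.90 to 4.33. It ranged from 2.27 without injected 1 to 3.77 without uninjected 2. The change in fibroblast-like cells less that in macrophage-like cells was 0.45 on the log2 scale, with an interval from -0.64 to 1.53, so the data bound the difference only loosely.

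Endothelial-like cells, which line vessels and were marked by Cdh5, Emcn and Esam, held the highest Csf3 level of all classes in every library. Their levels were 724 and 1444 CPM without injection and 1448 and 1460 CPM with it. Uninjected 2 was close to both injected libraries, and uninjected 1 was lower. This class had only 37 to 139 cells per library and was tested only after its values were seen. Its log2 change was 0.37 (SE 0.40), with an interval from -0.53 to 1.28. It was 0.013 without uninjected 1 and 0.90 without uninjected 2, where it was called (edgeR adjusted p = 0.0197) along with 10.7% of all genes. The change in fibroblast-like cells exceeded that in endothelial-like cells by 3.18 on the log2 scale, with an interval from 2.69 to 3.67. In that comparison 0.428% of all genes were called, Csf3 among them, and Csf3 was not called once injected 1 was left out (difference 3.19, adjusted p = 0.0952).

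Keratinocyte-like cells, the epithelial cells of the epidermis, held Csf3 at 36.6 and 33.6 CPM in the uninjected libraries. The injected libraries had 90.4 and 25.4 CPM, on either side of the uninjected ones. The log2 change was 0.56 (SE 0.56), with an interval from -0.86 to 1.97. Without injected 1 the change turned to -0.60. Within this class Csf3 was held mainly by a cluster led by Pappa1, Fermt1 and Itga2 (67.9 and 61.0 against 151 and 69.5 CPM) and by one led by Il24, Fgfbp1 and Nppb (56.3 and 46.7 against 102 and 31.8 CPM). In the cluster led by Krt15 it was at 1.84 and 4.16 against 6.55 and 8.43 CPM.

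Neutrophil-like cells held Csf3 at 64.7 and 88.2 CPM without injection and 127 and 141 CPM with it. With injection both libraries were higher, with a log2 change of 0.92 (SE 0.38) and an interval from 0.01 to 1.83. It was 0.60 without uninjected 1 and 1.32 without uninjected 2. The libraries differed in the clusters that made up this class. Most uninjected 1 cells were in cluster 4 (2833 of 4071), most uninjected 2 cells in cluster 9 (2073 of 3125), and most injected cells in cluster 8 (1944 of 3366 and 780 of 1127). Cluster 8, led by Acod1, Il1b and Ccl3, had the most Csf3 UMIs, and within it the levels were 165 and 415 against 187 and 171 CPM. The groups overlapped there, and in cluster 9 as well, where the levels were 6.09 to 29.2 CPM. In cluster 4 both injected libraries were higher (27.6 and 71.6 against 101 and 237 CPM), on 34 and 30 injected UMIs. The change in fibroblast-like cells exceeded that in neutrophil-like cells by 2.69 on the log2 scale, with an interval from 1.89 to 3.48.

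Csf3 was low or undetected in the remaining classes. Mast-like cells held no Csf3 UMI in any library, which allows up to 16.4 to 28.9 CPM at 3 counts per library. T and NK-like cells held 7 UMIs in all, skeletal muscle-like cells 6 and mural-like cells 16. Dendritic-like cells had 0 and 8 UMIs without injection and 41 and 5 with it, and 20 of the 41 came from 1 cell. Empty droplets, which measure RNA free in the suspension, held Csf3 at 39.5 and 47.6 CPM without injection and 186 and 118 CPM with it. An upper limit on free RNA, set from genes of other classes, could account for at most 0.292% to 2.97% of the Csf3 UMIs of fibroblast-like cells and 0.404% to 5.18% of those of macrophage-like cells, by library. In T and NK-like cells of injected 1 that limit was 92.8% of their 5 Csf3 UMIs.

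Because the depth of the libraries differed, cells were thinned to 1000 UMIs each before cells with a Csf3 UMI were counted. In fibroblast-like cells 0.549% and 2.41% of uninjected cells and 12.8% and 10.2% of injected cells then held one, from 364, 622, 831 and 560 cells. Unthinned shares were 6.25% and 10.2% against 37.1% and 25.2%. The Csf3 UMIs per holding cell were 1 and 1.33 against 1.93 and 2.44. Both the share of holding cells and the UMIs per holding cell were thus higher in both injected libraries. In endothelial-like cells the thinned shares were 26.7% and 48.7% against 45.4% and 51.6%. In macrophage-like cells they were 1.75% and 3.54% against 17.0% and 7.18%, in keratinocyte-like cells 2.27% and 1.78% against 4.33% and 1.64%, and in neutrophil-like cells 2.41% and 2.37% against 4.13% and 4.04%. Thinning left out 1792 of 4071 neutrophil-like cells of uninjected 1, and 341, 654 and 187 of the others. As a background, the thinned share in T and NK-like cells was 1.48% and 0% against 0.502% and 0%.

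**Figure D2:**
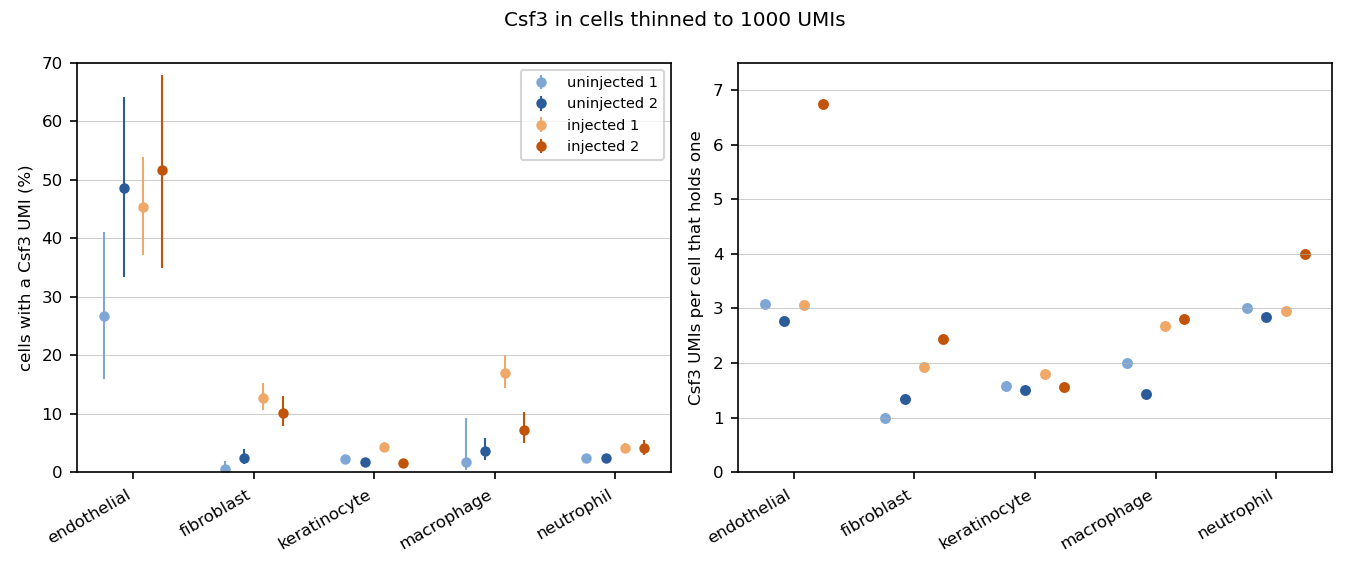
Share of cells with a Csf3 UMI (left, %, bars are 95% Wilson intervals, which cover counting error only) and Csf3 UMIs per cell that holds one (right), by cell class and library, with every cell thinned to 1000 UMIs. In fibroblast-like cells both measures are higher in the 2 injected libraries, while in endothelial-like cells 26.7% to 51.6% of cells held a UMI in all libraries.

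Csf3 UMIs were concentrated in fewer of the fibroblast-like than of the endothelial-like cells. The 10% of fibroblast-like cells with the most Csf3 UMIs held 100% and 99.7% of them without injection and 76.9% and 91.5% with it, and single cells reached 219 UMIs. In endothelial-like cells that share was 43.1% to 61.6%, and in neutrophil-like cells 100% in every library. It must be 100% wherever fewer than 10% of cells hold a UMI. That was so in neutrophil-like cells (2.38% to 4.6%, unthinned) and in fibroblast-like cells of uninjected 1 (6.25%). There it only restates the share of holding cells, which moves with depth. Fibroblast-like cells with 3 or more Csf3 UMIs carried 0.515 UMIs of endothelial markers per 10000, against 0.460 in fibroblast-like cells without Csf3 and 42.4 in Csf3-holding endothelial-like cells. Their fibroblast markers stood at 411 per 10000 against 405 in cells without Csf3 in uninjected 1, and were lower in the others, at 244 against 430 in uninjected 2, 429 against 536 in injected 1 and 391 against 622 in injected 2. In macrophage-like cells of injected 1, those with 3 or more Csf3 UMIs carried 20.8 UMIs of neutrophil markers per 10000 against 5.38 in those without, and the part of these markers in the result was not tested.

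Fibroblast-like cells with and without Csf3 were compared within each library after thinning to 3000 UMIs, where 13 of 349 and 26 of 605 uninjected cells and 182 of 810 and 81 of 529 injected cells held a Csf3 UMI. Cebpb, Rela and Col1a1 were picked from a longer list of genes after their values were seen. How many genes of that list shared their patterns was not counted, and the differences were not tested. Cebpb, a transcription factor of inflammatory and granulocyte genes, was at a ratio of 1.26 and 1.56 without injection and 1.13 and 1.46 with it, with over without. Rela, an NF-kB subunit, had ratios of 1.08, 1.54, 1.46 and 1.35. Both genes were above 1 in all 4 libraries, and so was the signal transducer Grb2 (1.76, 1.48, 1.19 and 1.41). Col1a1 was below 1 in all 4, with ratios from 0.585 to 0.808, and so was the signal transducer Jak1 (0.427, 0.609, 0.726 and 0.642). Csf1 had ratios of 1.08 and 0.723 without injection and 0.488 and 0.210 with it. In the injected libraries, then, fibroblast-like cells with Csf3 held less Csf1 than those without.

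The classes that held most Csf3 UMIs differed between the libraries. Keratinocyte-like cells held 71.4% and 46.4% of all Csf3 UMIs of kept cells without injection and 22.7% and 17.7% with it. Fibroblast-like cells held 3.96% and 16.1% against 33.6% and 60.4%. Endothelial-like cells, at most 139 cells of a library, held 12.3% and 23.0% against 27.6% and 9.31%. These shares also move with the number and depth of the cells captured of each class.

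**Figure D3:**
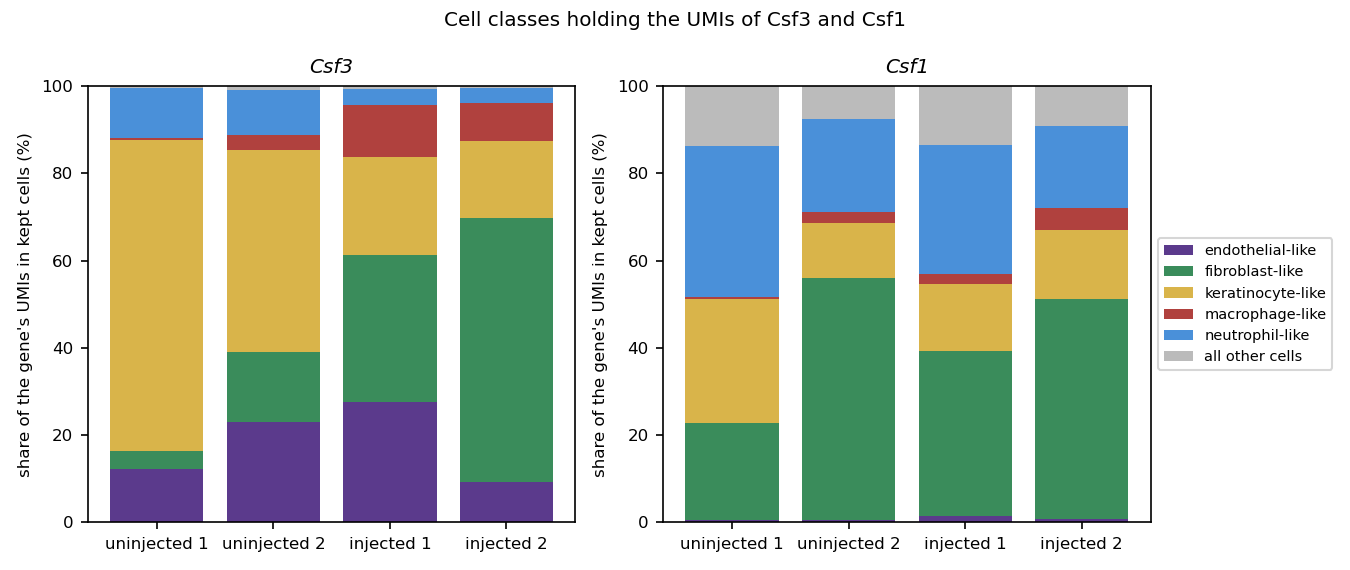
Share of all UMIs of Csf3 (left) and Csf1 (right) in kept cells that each cell class held (stacked bars, %), by library. Keratinocyte-like cells held 71.4% and 46.4% of Csf3 in the uninjected libraries, and fibroblast-like cells 33.6% and 60.4% in the injected libraries.

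Csf1 had its highest mean level among named classes in neutrophil-like cells. There it had 224 and 279 CPM without injection and 390 and 490 CPM with it, from 758 to 1809 UMIs each. The injected libraries were both higher, with a log2 change of 0.92 (SE 0.38) and an interval from 0.00 to 1.83. The order was the same in each of the 3 clusters of this class. Cluster 4 had 215 and 238 against 262 and 300 CPM, cluster 8 had 262 and 419 against 427 and 547 CPM, and cluster 9 had 131 and 260 against 349 and 375 CPM. It was the opposite in unnamed cluster 5, whose markers were closest to those of neutrophils, with 596 and 417 against 206 and 288 CPM. In unnamed cluster 10, which also leaned to neutrophil markers, Csf1 had 98.6 and 341 against 461 and 401 CPM. The share of neutrophil-like cells with a Csf1 UMI, thinned to 1000 UMIs, was 12.7% and 14.7% against 19.0% and 25.7%.

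**Figure D4:**
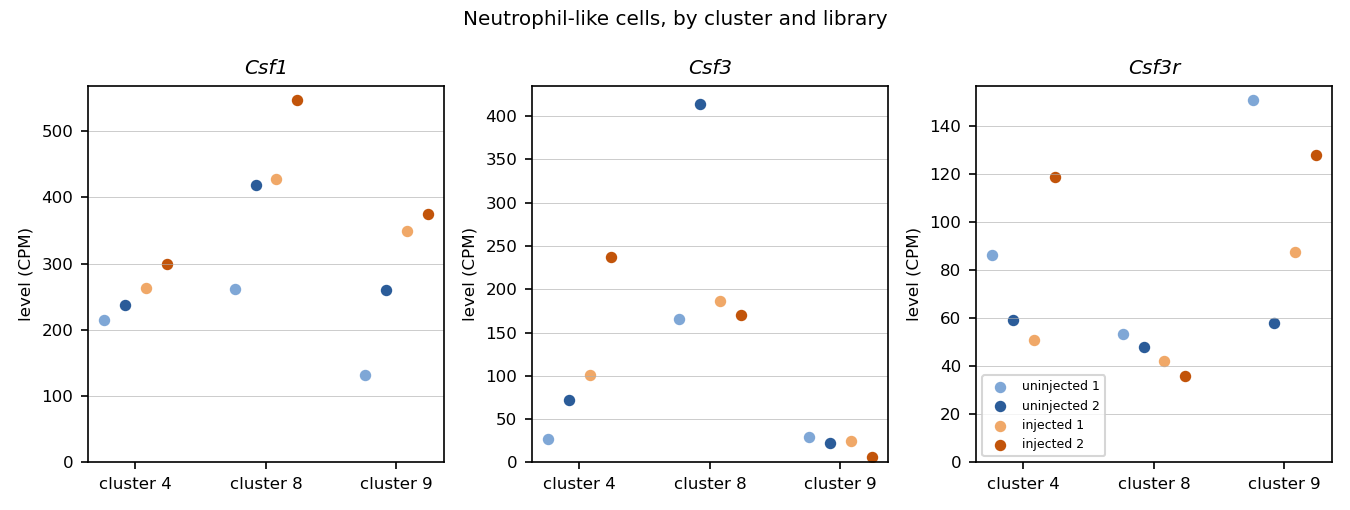
Level (CPM) of Csf1, Csf3 and Csf3r in the 3 clusters of neutrophil-like cells, with 1 point per library. Csf1 is higher in both injected libraries in each cluster, while Csf3 in cluster 8 spans 165 to 415 CPM with the groups overlapping.

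Mast-like cells, of which each library held 34 to 50, had Csf1 at 212 and 163 CPM without injection and 368 and 382 CPM with it. The injected pair was higher, on 20 to 70 UMIs each (log2 change 0.93, SE 0.49, interval -0.21 to 2.07). Skeletal muscle-like cells, marked by Des and Myod1, went the other way, with 227 and 216 against 153 and 69.0 CPM. Their log2 change was -1.19 (SE 0.45), with an interval from -2.21 to -0.17, and the lower injected library rested on 30 cells. The class was mixed. When each cell was named by its own markers, 32 of its 194 cells were skeletal muscle-like, 14 melanocyte-like and 130 unassigned. Melanocyte markers stood at 1703 CPM in injected 2, against 227 in injected 1 and 123 and 202 CPM without injection. The part of this mixture in the Csf1 levels was not tested.

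Fibroblast-like cells held more Csf1 UMIs than any other class in 3 of the 4 libraries, at 98.0 and 194 CPM without injection and 118 and 165 CPM with it. The injected values lay between the uninjected ones. The log2 change was -0.01 (SE 0.31), with an interval from -0.76 to 0.73, which leaves out changes of the size seen for Csf3 in the same cells. Macrophage-like cells had 84.1 and 75.5 against 46.0 and 85.5 CPM, and mural-like cells of vessel walls 184 and 105 against 116 and 136 CPM. Endothelial-like cells had 36.0 and 47.2 against 30.8 and 68.3 CPM, and keratinocyte-like cells 14.0 to 23.3 CPM in the 4 libraries. In all 4 of these classes the groups overlapped.

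The order of the class means for Csf1 was neutrophil-like (346 ± 118 CPM, SD over 4 libraries), mast-like (281 ± 111), skeletal muscle-like (166 ± 72.5), fibroblast-like (144 ± 43.8), mural-like (135 ± 34.9) and macrophage-like (72.8 ± 18.4). The SDs of neighbouring means in this order overlapped down to mural-like cells, and macrophage-like cells lay apart below them. Endothelial-like (45.6 ± 16.6), keratinocyte-like (17.3 ± 4.21) and T and NK-like cells (8.02 ± 5.14) followed, and dendritic-like cells were lowest (5.28 ± 3.02).

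Csf2 was sparse, with 122 to 203 UMIs per library over all kept cells. Endothelial-like cells had its highest level, 45.6 and 27.7 CPM without injection and 11.2 and 12.6 CPM with it. Both injected libraries were lower, on 19 and 17 against 34 and 5 UMIs. The log2 change, computed after these values were seen, was -1.71 (SE 0.50), with an interval from -2.84 to -0.57. Fibroblast-like cells held 27.4% to 70.4% of the Csf2 UMIs of a library at 6.16 and 3.28 against 6.02 and 8.09 CPM, which overlapped. Macrophage-like cells held no Csf2 UMI without injection and 12 and 3 with it. The 3 UMIs of injected 2 made 1.29 CPM, under the 1.37 CPM that 3 counts over the uninjected group would give, so no fold is given. Keratinocyte-like cells had 1.42 and 0.262 against 0.499 and 0.532 CPM.

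The stretch of 250 bases before the start of Csf2 was read from RefSeq for the one ligand whose promoter was at hand, at chr10:38889674-38889923 on the minus strand of GRCr8, because the Csf2 and Csf3 genes are known to share the CK-1 element, a motif of cytokine promoters. In it, capitals mark GAGATTCC, the core of CK-1, and GAGGAA (here as TTCCTC, on the other strand), the core of binding sites for Spi1 (PU.1).
Csf2: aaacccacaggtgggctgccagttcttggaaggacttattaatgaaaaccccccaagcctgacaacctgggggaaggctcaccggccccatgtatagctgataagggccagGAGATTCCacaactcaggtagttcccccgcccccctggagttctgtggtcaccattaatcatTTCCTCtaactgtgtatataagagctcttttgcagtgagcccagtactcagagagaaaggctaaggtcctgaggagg
GAGATTCC lay from -139 to -132 relative to the start, and was found on either strand in 0.72% of 33469 rat promoters of this length. GAGGAA lay from -77 to -72, and 23.3% of the promoters held it. TGANTCA (AP-1), TTGCNNAA (C/EBP) and TATAAA, held by 6.34%, 9.22% and 12.9% of the promoters, were also searched on both strands and had no match in this window. A match is a run of letters and was not tested for binding.

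Of the receptors, Csf3r had its highest level among named classes in neutrophil-like cells. Neutrophil-like cells had 80.4 and 56.6 CPM without injection and 57.7 and 62.1 CPM with it. The groups overlapped, with a log2 change of -0.04 (SE 0.32) and an interval from -0.81 to 0.73. Thinned to 1000 UMIs, 6.84% and 4.89% against 5.27% and 5.00% of these cells held a Csf3r UMI. Cluster 8, where Csf3 was highest of the 3 clusters in all libraries but injected 2, had 53.4 and 47.9 against 42.3 and 35.8 CPM, and cluster 9 had 151 and 57.9 against 87.4 and 128 CPM. Each library had a lower Csf3r level in cluster 8 than in cluster 9. The 2 unnamed clusters with Clec4e and Mcemp1 among their leading genes held it at 45.8 to 197 CPM. Macrophage-like cells had 9.90 and 6.55 against 7.41 and 5.61 CPM, of which free RNA could account for at most 0.600% to 3.17%, by library. In fibroblast-like and keratinocyte-like cells it did not pass 0.561 CPM in any library.

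The promoter of Csf3r, at chr5:143582970-143583219 on the plus strand of GRCr8 in RefSeq, is shown because Spi1 and C/EBP factors are known to control the gene. Capitals mark the 1 match found for the same 5 motifs, GAGGAA from -160 to -155.
Csf3r: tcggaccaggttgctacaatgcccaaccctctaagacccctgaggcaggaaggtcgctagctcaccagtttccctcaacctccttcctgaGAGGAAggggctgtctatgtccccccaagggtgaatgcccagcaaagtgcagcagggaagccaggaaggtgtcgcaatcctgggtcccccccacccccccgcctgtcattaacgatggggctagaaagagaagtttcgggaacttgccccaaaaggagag

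Csf1r, the receptor of Csf1 and Il34, was highest in macrophage-like cells at 124 and 134 CPM without injection and 97.3 and 111 CPM with it. Both injected libraries were slightly lower, with a log2 change of -0.13 (SE 0.33) and an interval from -0.87 to 0.61. Thinned shares were 8.77% and 10.4% against 10.2% and 9.84%. Dendritic-like cells had 75.4 and 30.3 against 19.4 and 31.3 CPM (log2 change -1.12, SE 0.54, interval -2.40 to 0.17). Nearly all of it lay in the cluster that held Cd207, a marker of Langerhans cells, among its leading genes. That cluster had 112 and 60.6 against 31.6 and 60.8 CPM from 318 of the 325 UMIs of the class. Mast-like cells had 3, 0, 16 and 6 UMIs. Fibroblast-like cells were far lower, at 2.47 and 2.93 against 4.90 and 4.37 CPM, with both injected libraries higher (log2 change 0.79, SE 0.35, interval -0.03 to 1.61). Neutrophil-like cells had 5.01 and 3.51 against 1.51 and 2.59 CPM, on 4 to 22 UMIs. Free RNA could account for at most 0.494% to 2.77% of the Csf1r UMIs of fibroblast-like cells and 2.12% to 17.99% of those of neutrophil-like cells, by library.

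Csf2rb, the signalling chain shared by the Csf2, Il3 and Il5 receptors, was highest in an unnamed cluster led by Gpr171, Blnk and Il21r, at 90.7 and 84.0 against 85.2 and 114 CPM. The cluster also held Csf2, at 4.12 and 14.3 against 6.55 and 10.4 CPM from 52 UMIs. Among named classes Csf2rb was highest in mast-like cells (38.5 and 65.0 against 103 and 16.4 CPM, on 3 to 17 UMIs) and in dendritic-like cells (41.0 and 39.0 against 51.6 and 59.1 CPM). In dendritic-like cells both injected libraries were higher, with a log2 change of 0.36 (SE 0.26) and an interval from -0.26 to 0.98. Unlike Csf1r, Csf2rb was at similar levels in both dendritic-like clusters, 37.9 to 60.0 and 38.1 to 58.2 CPM over the libraries. Neutrophil-like cells had 19.1 and 12.5 against 25.6 and 20.7 CPM (log2 change 0.72, SE 0.33, interval -0.08 to 1.51). Endothelial-like cells had 9.59 and 42.3 against 13.8 and 7.59 CPM. Keratinocyte-like and fibroblast-like cells stayed at or below 0.648 CPM.

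By the threshold of adjusted p under 0.05 in edgeR's quasi-likelihood test, 0 of the members tested were called in any of the 6 classes. The members tested numbered 4 in fibroblast-like cells, where 0.0377% of all genes were called, and 5 in macrophage-like cells, where 0.0115% were. They numbered 5 in neutrophil-like, 5 in keratinocyte-like and 3 in dendritic-like cells, where 0% of all genes were called, and none passed the low count filter in T and NK-like cells (0% of all genes called). At an unadjusted p under 0.05, 1 member passed in fibroblast-like cells (10.3% of all genes), 1 in macrophage-like cells (5.17%), 2 in neutrophil-like cells (9.58%) and 0 in keratinocyte-like (4.51%) and dendritic-like cells (5.9%), beside 8.6% of all genes in T and NK-like cells. In the classes added later, 0 of 3 members were called in endothelial-like cells (0.0157% of all genes) and 0 of 1 in mast-like and in skeletal muscle-like cells (0%). At an unadjusted p under 0.05 these classes had 1 member (10.1% of all genes), 0 (6.35%) and 1 (6.1%). DESeq2 called Csf3 in fibroblast-like and in macrophage-like cells and no other member, where it called 1.19% and 0.0575% of all genes. The member nearest the threshold was Csf3 in fibroblast-like cells (edgeR adjusted p = 0.0587). It was called without uninjected 1 (1.21% of all genes called) or without uninjected 2 (7.16%) and was not called without either injected library (adjusted p = 0.146 without injected 1 and 0.0920 without injected 2). With the replicate number as a block its adjusted p was 0.0275, and it was called (0.0829% of all genes). Csf3 in macrophage-like cells had an adjusted p of 0.246 in the same edgeR test and was called without injected 2 (adjusted p = 0.0147, 0.0446% of all genes called). In neutrophil-like cells Csf1 and Csf3 were called only when uninjected 2 was left out, among the 4 libraries left out in turn, and 16.5% of all genes were called with them. Csf1r in dendritic-like cells was called without uninjected 2 (log2 change -1.77, 5.58% of all genes called), and its change was -0.30 without uninjected 1.

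**Figure D5:**
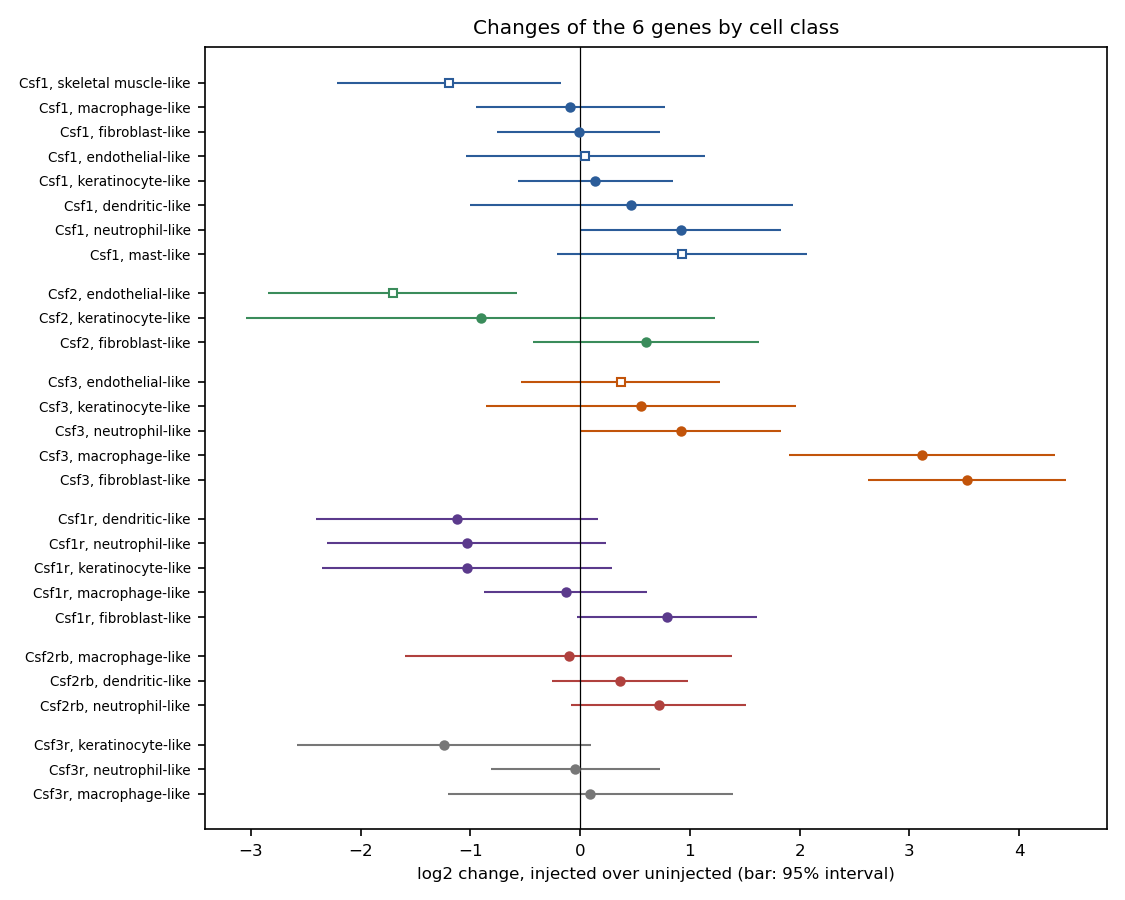
log2 change of each tested gene, injected over uninjected, by cell class, with its 95% interval from the edgeR fit. Filled circles are the classes tested by plan, and open squares the classes of 30 to 49 cells in their smallest library, tested after their values were seen. Csf3 in fibroblast-like (3.52) and macrophage-like cells (3.12) lies farthest from 0.

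No overlap between the groups was common across all genes, and the members are set against that. In fibroblast-like cells 2 of the 4 members tested had both injected libraries above both uninjected ones, as 17.5% of all genes did, and 0 had both below, as 21.6% did. In neutrophil-like cells 3 of 5 were above (16.9% of all genes) and 1 below (24.6%). In macrophage-like cells 1 of 5 was above (10.1%) and 1 below (28.3%), in dendritic-like cells 1 of 3 above (25.8%) and 0 below (13.5%), and in keratinocyte-like cells 0 of 5 above (30.3%) and 1 below (9.99%). In endothelial-like cells 1 of 3 was above (24.8%) and 1 below (17.8%). The 1 member tested was above in mast-like cells (19.9%) and below in skeletal muscle-like cells (9.8%). The change of a member in fibroblast-like cells differed past the threshold from that in endothelial-like cells for Csf3 alone. It did so for 0 members against macrophage-like (0.0471% of all genes called), neutrophil-like (0.0128%), dendritic-like (0.0114%), keratinocyte-like, mast-like and skeletal muscle-like cells (0% each). Csf3 was compared only with endothelial-like, macrophage-like, neutrophil-like and keratinocyte-like cells. Against dendritic-like cells only Csf1 and Csf1r passed the low count filter in both classes, and against mast-like and skeletal muscle-like cells only Csf1. Against T and NK-like cells (0.864% of all genes called) no member did. The median log2 change of the tested members was 0.70 in fibroblast-like, 0.72 in neutrophil-like and -0.09 in macrophage-like cells. It was 0.36 in dendritic-like and -0.91 in keratinocyte-like cells. That of all genes tested lay between -0.02 and 0.01 in these classes. The keratinocyte-like median was the value of Csf2 (SE 0.85), with Csf3r (-1.24) and Csf1r (-1.03) below it and Csf1 (0.14) and Csf3 (0.56) above.

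Around the 6 genes, 53 pathway genes were listed and 52 were found in the files. They were other ligands and receptor chains, signal transducers, negative regulators, myeloid transcription factors, inducers, mRNA decay factors and survival genes. The list was written with earlier results of these data known for some cytokine genes, so counts over it are a description. In fibroblast-like cells 45 were tested and 0 were called by edgeR. At an unadjusted p under 0.05 there were 7 (10.3% of all genes), and 3 were called by DESeq2 (1.19%). The 10 inducers tested all had a log2 change above 0, as 6658 of all 13277 genes tested did. The inducers above 0 were 9 of 10 in neutrophil-like, 7 of 10 in macrophage-like and in keratinocyte-like, and 7 of 9 in dendritic-like cells. They were 3 of 9 in T and NK-like, 1 of 8 in endothelial-like, 1 of 7 in skeletal muscle-like and 2 of 2 in mast-like cells. Il1b, the cytokine IL-1 beta, had 32.8 and 43.1 against 73.7 and 95.7 CPM (log2 change 1.17, SE 0.23, adjusted p = 0.253), and Il1a 2.16 and 2.05 against 8.31 and 5.91 CPM (1.79, SE 0.37, adjusted p = 0.272). Cebpd, a transcription factor of acute inflammation, had 158 and 185 against 317 and 375 CPM (1.02, SE 0.24, adjusted p = 0.315). These 3 genes were the ones called by DESeq2, and each had both injected libraries above both uninjected ones. Free RNA could make up at most 0.499% to 1.12% of all UMIs of fibroblast-like cells, by library. Its part in the Il1b and Il1a levels of these cells was not tested.

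In macrophage-like cells 45 pathway genes were tested and 0 were called. At an unadjusted p under 0.05 there were 3 (5.17% of all genes), and 0 were called by DESeq2 (0.0575%). Il1b had 1915 and 1326 against 5088 and 2341 CPM (log2 change 1.40, SE 0.48, adjusted p = 0.909 by edgeR). Il1a had 218 and 184 against 568 and 259 CPM (1.26, SE 0.45, the same adjusted p of 0.909). Both injected libraries were higher for each of these inducers.

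In dendritic-like cells 42 were tested and 0 were called by edgeR. At an unadjusted p under 0.05 there were 5 (5.9% of all genes), and 1, Il1a, was called by DESeq2 (0.198%). Il1a had 27.8 and 29.4 against 97.1 and 122 CPM (log2 change 1.83, SE 0.26, adjusted p = 0.463 by edgeR), Il1b 969 and 1226 against 2567 and 2741 CPM, and the survival gene Bcl2l1 26.4 and 36.1 against 82.4 and 48.2 CPM. Each had both injected libraries higher.

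In neutrophil-like cells 45 were tested and 0 were called. At an unadjusted p under 0.05 there were 3 (9.58% of all genes), and 0 were called by DESeq2 (0.543%). Cish, a feedback inhibitor that Stat5 induces, had 20.0 and 52.4 against 114 and 118 CPM (log2 change 1.75, SE 0.56, adjusted p = 0.521 by edgeR). Spi1, the myeloid transcription factor PU.1, had 37.6 and 56.8 against 107 and 103 CPM, and the phosphatase gene Ptpn6 11.8 and 21.9 against 34.2 and 37.5 CPM. Both injected libraries were higher for each. Without uninjected 1, 11 of 45 pathway genes were called in this class, where 5.43% of all genes were, and without uninjected 2, 8 of 45 were, where 16.5% of all genes were.

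In keratinocyte-like cells 48 were tested, with 0 called by edgeR (0% of all genes) or DESeq2 (0.246%) and 0 at an unadjusted p under 0.05 (4.51%). The 3 of smallest p were Socs3 (8.94 and 11.6 against 14.5 and 15.4 CPM), Cebpd (133 and 228 against 306 and 281 CPM) and Bcl2l1 (17.4 and 20.7 against 17.6 and 15.4 CPM). In T and NK-like cells 40 were tested, with 0 called by either tool (0% of all genes by edgeR, 0.119% by DESeq2). At an unadjusted p under 0.05 there were 6 (8.6% of all genes). Zfp36, which speeds the decay of cytokine mRNAs, had 308 and 273 against 183 and 118 CPM (log2 change -1.17, SE 0.32, adjusted p = 0.566 by edgeR). Socs1 had 142 and 174 against 115 and 123 CPM and Il1b 64.2 and 79.1 against 44.7 and 54.7 CPM, lower in both injected libraries. Free RNA could make up at most 1.07% to 5.3% of all UMIs of T and NK-like cells, by library. Its part in their Il1b level was not tested.

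The other ligands of these receptors were scarce. Il34 was held by fibroblast-like cells at 8.48 and 9.15 against 7.55 and 5.50 CPM (log2 change -0.41, SE 0.29, edgeR adjusted p = 0.695) and by keratinocyte-like cells at 2.51 to 3.84 CPM. Il3 had at most 2 UMIs in any class and library, and Il5 at most 5, in T and NK-like cells of uninjected 1. The alpha chain Csf2ra was held by macrophage-like cells (218 and 242 against 268 and 279 CPM), neutrophil-like cells (166 and 166 against 227 and 210 CPM) and dendritic-like cells (143 and 197 against 220 and 198 CPM). In each of them both injected libraries were higher, and the edgeR adjusted p was 0.919, 0.625 and 0.923. Il3ra was highest in mast-like cells (77.0 and 179 against 224 and 191 CPM) and macrophage-like cells (89.1 and 68.5 against 81.5 and 67.8 CPM). Il5ra was found in mast-like cells at 27.3 to 48.8 CPM on 3 to 8 UMIs.

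The genes whose pattern was most like each member were found by Pearson's r of log2(CPM + 1) over 24 points, the 6 tested classes in 4 libraries. The points share libraries and depth, so r is a description. For Csf3 they were Thbs1 (r = 0.891), Ptgs2 (0.874), Cxcl1 (0.867), Tnfaip2 (0.858) and Bnip3 (0.851). Ptgs2 is the inducible cyclooxygenase and Cxcl1 a neutrophil chemokine. For Csf1 they were Egr1 (0.914), Abhd5 (0.907), Sod2 (0.906), Msrb1 (0.890) and Steap4 (0.886), and for Csf2, at low counts, Slc9a4 (0.874), Svep1 (0.849), Adamts7 (0.839), Sparc (0.820) and Bmp4 (0.818). The receptor genes had closer partners. Those of Csf1r were AABR07006310.1 (0.959), Tnfsf13 (0.954), Cd68 (0.951), Dpep2 (0.945) and Ms4a7 (0.944), of which Cd68 and Ms4a7 were macrophage markers in the naming of the classes. Those of Csf2rb were Ly75 (0.975), Cfp (0.958), Ncf4 (0.945), Wdfy4 (0.944) and Themis2 (0.940), and those of Csf3r Clec4e (0.974), Lrg1 (0.970), AC114233.2 (0.951), RGD1561143 (0.949) and LOC681341 (0.948).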

How the data were processed

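Droplet single-cell RNA sequencing was done on 4 libraries of digested, strained rat skin. The deposited values are UMI counts per gene and barcode for all barcodes, written by Cell Ranger 7.2.0 per the file headers, while the submitters' processing notes name version 5.0.1. For the genome build and the use of strand in counting: not given in the sources used here. Total counts were 82112943 and 105605297 (uninjected) and 98444851 and 75823418 (injected) UMIs.

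Barcodes were called as cells against empty droplets (at least 500 UMIs, false discovery rate 0.01), with at least 250 genes and at most 20% mitochondrial UMIs, and 2746 doublets were removed with Scrublet, leaving 33725 cells. Cells were clustered with scanpy 1.11.5 (2000 variable genes without the members, 30 components, 15 neighbours, Leiden resolution 1) and named from at least 3 listed markers. Counts were summed per class and library. Classes with at least 50 cells per library were tested with edgeR 4.0.16 (R 4.3.3, TMM, quasi-likelihood, Benjamini-Hochberg over all genes passing its count filter), with DESeq2 1.42.0 as an alternative. The fit was tested on simulated counts. Named pathway genes were the 3 of smallest p in each tested class and the other ligands and receptor chains that were tested. A result of that rule in macrophage-like cells is not reported here. Members and lists were chosen with earlier results of these data known. Intervals and limits on shares cover counting error only. Csf1 overlaps LOC120100914 in the GRCr8 annotation, and reads of the pair cannot be told apart without strand.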

Additional observations from a re-analysis of the deposited data

Results flagged for a closer look

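The Csf3 change in fibroblast-like cells exceeded that in endothelial-like cells by 3.18 on the log2 scale (SE 0.21, edgeR adjusted p = 0.00558), the only such difference of a member past the threshold among the classes compared, in a comparison added after seeing the data.

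Csf1 moved in opposite directions in classes where the groups did not overlap. The injected over uninjected ratio of mean CPM was 2.00 in mast-like and 1.75 in neutrophil-like cells and 0.502 in skeletal muscle-like cells. The difference between these classes was not tested, and the skeletal muscle-like class also held cells with melanocyte markers.

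Empty droplets were used to call cells and to limit or subtract free RNA, and were not themselves tested between the groups. Csf3 in them had an injected over uninjected ratio of mean CPM of 3.48.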

How the results depend on the processing

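With 2 libraries a group, calls near the threshold depend on single libraries, and classes of few cells and Csf2 are limited by counts. Of the member changes, 6 of 177 under alternatives and 14 of 108 with a library left out turned sign. The members called in fibroblast-like cells went from 0 to 1 with a marker gate per cell, DESeq2's Wald test, no filter on low counts or the replicate block, where the Csf3 change was 3.61, 3.51, 3.52 and 3.62. Of all genes there, 1.19% were called with the Wald test and 0.0829% with the block. The Wald test called 0.0575% in macrophage-like and 0.198% in dendritic-like cells. For the gate, no filter and DESeq2 size factors the share of all genes called was not counted in any class, so those counts have no background. With a library left out that count ranged from 0 to 1 and the change from 3.10 to 4.16. In macrophage-like cells 1 was called with DESeq2's Wald test or no filter (0 to 1 with a library left out), in dendritic-like cells 1 with no filter (0 to 1), and in neutrophil-like cells 0 to 2 with a library left out. The members whose change differed between fibroblast-like and neutrophil-like cells went from 0 to 1 with DESeq2 size factors or the gate. That count, and the one against endothelial-like cells, also moved with a library left out. The share of all genes called was not counted for these comparisons under any of these settings. DESeq2's Wald test called 3 pathway genes in fibroblast-like and 1 in dendritic-like cells. With a library left out the pathway count reached 0 to 2 in both, 0 to 3 in T and NK-like and 0 to 11 in neutrophil-like cells. Each fit with a library left out kept only 1 library in a group. In the fits with the highest of these pathway counts, the share of all genes called was also higher than with all libraries. These pathway counts alone are therefore no result about the pathway. The cause was not tested.

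Signs turned as follows. The gate gave -0.0095 for Csf2ra in dendritic-like and 0.0636 for Csf3r in neutrophil-like cells. Keeping doublets gave 0.10 for Csf2rb and -0.22 for Csf3r in macrophage-like cells, where DESeq2's Wald test gave -0.0074 for Csf3r. The Csf1 difference between fibroblast-like and macrophage-like cells was -0.0044 with DESeq2 size factors and -0.026 with free RNA subtracted. With a library left out, Csf1 ranged from -0.35 to 0.41 in fibroblast-like, -0.20 to 0.42 in keratinocyte-like, -0.54 to 0.29 in macrophage-like and -0.50 to 0.68 in endothelial-like cells (-0.0864 without uninjected 1). In keratinocyte-like cells Csf2 ranged from -1.70 to 0.92 (the latter without uninjected 1), Csf3 from -0.60 to 1.20, Il34 from -0.0499 to 0.33 and Il5ra from -0.31 to 0.62. In macrophage-like cells Csf2rb ranged from -0.99 to 0.45, Csf3r from -0.38 to 0.28 and Il3ra from -0.0468 to 0.34. Csf2ra in fibroblast-like cells ranged from -1.15 to 0.52, Il3ra from -0.0919 to 0.65 in dendritic-like and -0.20 to 0.69 in neutrophil-like cells, and Csf3r in neutrophil-like cells from -0.16 to 0.0747. The Csf1 difference ranged from -0.49 to 0.26 (0.17 without uninjected 2) against endothelial-like, -0.68 to 0.48 against keratinocyte-like and -0.30 to 0.61 against macrophage-like cells, and the Csf3 difference from -0.40 to 1.18 against macrophage-like cells.

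Same-numbered libraries did not deviate together (r from -0.155 to -0.010 by class). This sets 1 difference in each group against the other, and uninjected 1 stood apart. The check therefore cannot decide whether the numbers pair the libraries. With the replicate block Csf3 in fibroblast-like cells was called at 3.62, Csf1 there turned to 0.0215 and Csf3r in macrophage-like cells to -0.11. A crossed block, chosen after seeing the data, called 1 pathway gene in dendritic-like and 0 in neutrophil-like cells, and 0 members in both. It called 0.374% and 0% of all genes there. The gate was not run for macrophage-like and T and NK-like cells, which it left with 32 and 36 cells in the smallest library.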
